A study of Mus musculus with 8 samples.

Results

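The Toll-like receptor genes Tlr1, Tlr2, Tlr3, Tlr4, Tlr5, Tlr7, Tlr8 and Tlr9, the co-receptor gene Cd14 and the adaptor gene Myd88 were followed in 8 RNA sequencing libraries of mouse knee joint. These 10 genes were chosen by name from the 20681 gene rows of the table, and no level or difference entered the choice. Per the labels, all mice were Acan-Cre;Loxl2 fl/fl. On this genotype a Cre recombinase driven from the aggrecan gene can remove the loxP-flanked part of Loxl2. It acts in cells that use that driver, such as chondrocytes, and leaves the other cells of the joint unedited. The genotype alone does not say in which of the mice that part was removed. Loxl2 encodes lysyl oxidase-like 2, an enzyme that cross-links collagen. There were 4 libraries labelled control, described as vehicle-treated, and 4 labelled knockout, described as conditional knockouts. The library names carry LOXL2wt for the control and LOXL2ko for the knockout libraries, beside the single genotype that the labels give for all mice. What the knockout animals received in place of vehicle, the age of the mice and the time of sampling are not given in the sources used here. All 8 library names contain DMM, which is left unexplained there and is a common abbreviation for surgical destabilisation of the medial meniscus, an injury model of osteoarthritis.

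Toll-like receptors are membrane proteins that bind conserved microbial molecules and also fragments of the body's own matrix and nucleic acids. TLR1, TLR2, TLR4 and TLR5 act mainly at the cell surface, whereas TLR3, TLR7, TLR8 and TLR9 sense nucleic acids from within endosomes. CD14 hands ligands such as lipopolysaccharide to TLR4, and MYD88 links every receptor listed here except TLR3 to the kinases that activate NF-kB. In the joint these receptors are known from macrophages, synovial fibroblasts and chondrocytes, and matrix fragments released by injury are among their ligands.

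Values are normalised read counts, which are reads per gene divided by a size factor for each library, and each group's 4 values are given in the order of replicates 1 to 4. The libraries held 13991000 to 17411617 reads in genes. Loxl2 itself went against the labels on average, with overlap between the groups. It read 282, 349, 1135 and 311 normalised counts in the control libraries, and 893, 1469, 960 and 1518 in the knockout libraries. Its mean was 519 ± 411 (SD, n = 4) in the libraries labelled control and 1210 ± 329 in those labelled knockout (log2 difference 1.44, SE 0.40, adjusted p = 0.0294, exact permutation p = 0.0857). Leaving out control replicate 3 raised the difference to 1.91 (adjusted p = 0.00188). The call also held in the fits that dropped knockout replicate 1 or 3, and was lost in the other 5. It was lost as well with edgeR (1.23, adjusted p = 0.0669), with DESeq2 (1.23, adjusted p = 0.0659) and with a replicate block in limma (adjusted p = 0.0513). The groups are therefore named by their labels throughout, and reads from outside the deleted segment of Loxl2 would not show the deletion. Aggrecan, the defining transcript of the Cre-expressing cells, was present in every library. The summed level of 10 skeletal muscle markers ran from 1775200 to 1881327 in the control libraries and from 853219 to 1249650 in the knockout libraries, without overlap. Xist and Y-linked reads showed control replicates 3 and 4 and knockout replicate 2 to be male and the other 5 libraries female.

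Cd14 and Tlr3 were about 2-fold higher in the knockout libraries, with no overlap between the groups, and the RNA-sensing receptors Tlr7 and Tlr8 were also called higher, with calls that were lost in most fits that left out 1 library. None of the 4 surface receptor genes passed the test, although Tlr2 read about as large a difference as Tlr3. Of the 10 genes, 9 reached 10 normalised counts in at least 4 libraries and were tested with limma on log2(value + 1), with Benjamini-Hochberg adjustment over all 14949 genes that reached it. At an adjusted p under 0.05, 4 of the 9 were higher and 0 were lower in the knockout libraries, while 23.2% of all tested genes were called, 11.6% higher and 11.6% lower. The log2 differences of the 9 genes ran from -0.0011 to 1.60 with a median of 1.01, beside a median of 0.001 over all genes tested. For 3 of the 9, every knockout library lay above every control library, an arrangement seen in 11.7% of all genes tested. Tlr8, 1 of these 3, reached the level for testing only through the 4 knockout libraries. The absence of overlap between its groups came with that requirement, and its difference was in part set by it. In whole-tissue RNA, more cells of a type and more RNA per cell cannot be told apart.

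**Figure D1:**
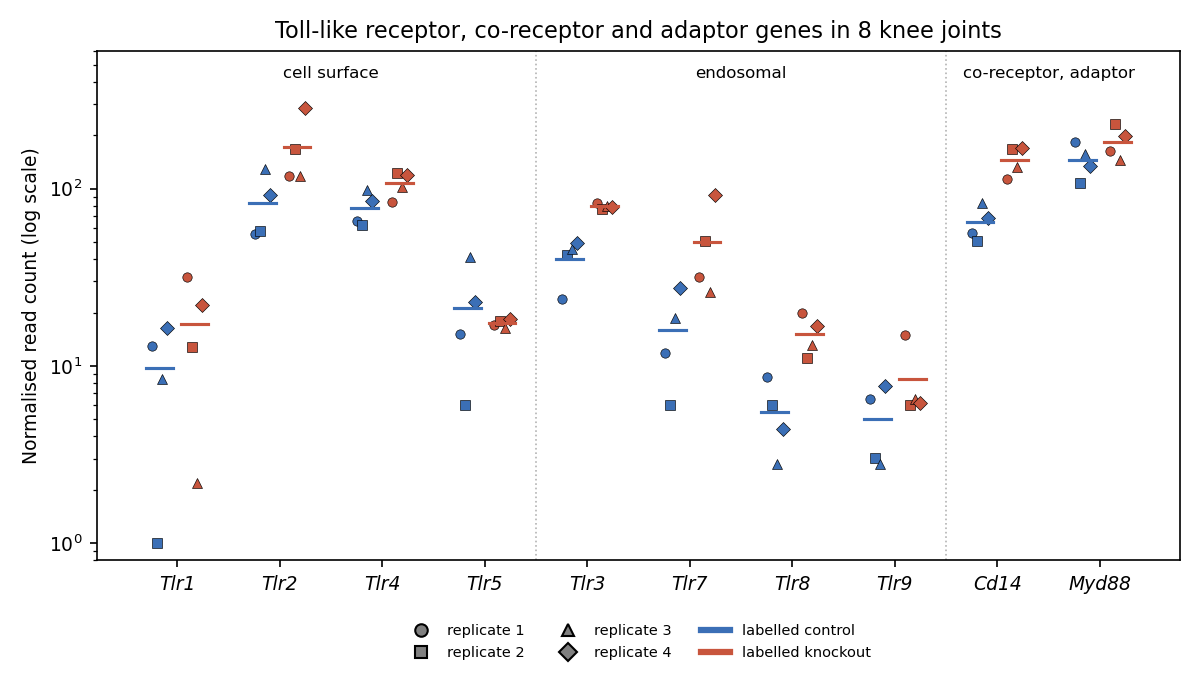
Normalised read count (log scale) of the 10 genes in each of the 8 libraries, labelled control in blue and labelled knockout in red, with marker shape for the replicate number and a bar for the group mean. The red points lie above all blue points for Tlr3, Tlr8 and Cd14, and the groups overlap for the other 7 genes.

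Cd14 encodes the anchored co-receptor that delivers lipopolysaccharide to TLR4 and also assists TLR2 and TLR3. It read 56.2, 50.5, 83.2 and 67.9 normalised counts in the control libraries, and 113, 167, 133 and 169 in the knockout libraries. The lowest knockout library, replicate 1, stood above the highest control library, replicate 3. The mean was 64.5 ± 14.4 (SD, n = 4) against 145 ± 27.4, a log2 difference of 1.17 (SE 0.21, 95% interval 0.71 to 1.63, adjusted p = 0.00677). The exact two-sided permutation p was 0.0286, the smallest that the 70 assignments of libraries to groups can give. Cd14 lies on chromosome 18 (36725067 to 36726798, minus strand, mm10) and overlaps no other annotated gene. It kept its call in all 8 fits that left out 1 library, with adjusted p from 0.00459 to 0.0248. With a muscle marker score as covariate its difference was 0.44 and did not pass (adjusted p = 0.995). That fit called 0 of all genes tested, and 84.4% of the variance of the score lay between the groups. It can therefore hardly separate the score from the labels.

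Among the surface receptors, Tlr2 encodes the receptor for bacterial lipoproteins, which works as a dimer with TLR1 or TLR6. The gene lies on chromosome 3 (83836272 to 83841767, minus strand). It read 55.2, 57.5, 129 and 92.0 normalised counts in the control libraries, and 118, 169, 117 and 286 in the knockout libraries. Knockout replicate 4 was the highest by far, and control replicate 3 lay above knockout replicates 1 and 3, so the groups overlapped. The mean was 83.4 ± 34.7 against 172 ± 79.5, a log2 difference of 1.03 (SE 0.35, 95% interval 0.26 to 1.80), and the adjusted p of 0.0566 missed the threshold. Tlr2 passed when control replicate 3 was left out (1.26, adjusted p = 0.0267), when knockout replicate 3 was left out (1.18, adjusted p = 0.0466) and with DESeq2 on the recovered reads (1.06, adjusted p = 0.0177). It also passed when libraries were scaled without muscle and blood marker genes and the 50 genes with the highest means (1.17, adjusted p = 0.0387). That scaling raises the median of all genes by 0.15, and the difference of Tlr2 relative to that median was 1.03.

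Promoter sequence is shown for 4 genes, chosen after the search as examples: Tlr2 and Myd88 for the rarer motifs, Tlr3 and Tlr8 as genes called higher. RefSeq windows on GRCm38.p6 (the mm10 assembly) were available for 7 of the 10 genes, and the 250 bases before each start were searched on both strands. The motif for NF-kB, the factor that the receptors activate, was GGGA, any base, TT, any base and CC, and 0.98% of 32851 promoter windows hold it. The core for interferon regulatory factors was AA, any 2 bases and GAAA, held by 21.3% of windows, and the longer interferon-stimulated response element was GAAA, any 2 bases and GAAA, held by 2.98% and always containing a core. The core for PU.1, a factor of myeloid cells, was GAGGAA, held by 23.3%, and the AP-1 motif was TGA, any base and TCA, held by 6.75%. Each run reads 5′ to 3′ on the gene's strand and capitals mark the matches.
Tlr2 chr3:83841768-83841858 (minus strand): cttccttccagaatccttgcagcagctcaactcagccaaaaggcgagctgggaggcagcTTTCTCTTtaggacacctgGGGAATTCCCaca
Tlr3 chr8:45410381-45410452 (minus strand): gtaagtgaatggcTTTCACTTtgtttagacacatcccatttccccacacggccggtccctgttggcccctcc
Myd88 chr9:119340042-119340268 (minus strand): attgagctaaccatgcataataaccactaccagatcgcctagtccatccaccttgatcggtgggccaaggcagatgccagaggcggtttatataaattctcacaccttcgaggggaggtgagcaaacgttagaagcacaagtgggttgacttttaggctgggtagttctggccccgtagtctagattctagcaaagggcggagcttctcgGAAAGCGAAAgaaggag
Tlr8 chrX:167264330-167264579 (minus strand): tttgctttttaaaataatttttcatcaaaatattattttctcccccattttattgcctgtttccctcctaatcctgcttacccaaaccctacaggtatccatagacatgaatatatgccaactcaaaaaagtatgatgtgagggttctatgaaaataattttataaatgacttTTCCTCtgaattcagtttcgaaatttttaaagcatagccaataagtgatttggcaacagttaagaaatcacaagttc
The Tlr2 run holds an interferon regulatory factor core on the opposite strand from 191 to 184 bases before the start. Its NF-kB match lies from 172 to 163 bases before the start. The Tlr3 run holds a core, also on the opposite strand, 59 to 52 bases before its start. In Myd88 the response element lies 40 to 31 bases before the start, and in Tlr8 a PU.1 core on the opposite strand lies 77 to 72 bases before it. The Tlr3 stretch lies between the first annotated exon and the RefSeq start, and Tlr3 has an NF-kB match further upstream inside that exon that is not shown. All distances count from the RefSeq start. The Myd88 stretch lies inside the annotated gene (119335934 to 119341411), outside annotated exons. The Tlr2 stretch lies directly before the annotated gene, which starts at 83841767 on the minus strand. Of the genes not printed, Tlr1 has a PU.1 core 23 to 18 bases before the start, and Tlr9 has one 112 to 107 bases and an AP-1 match 58 to 52 bases before it. Interferon regulatory factor cores inside annotated exons, not shown, lie 145 to 138 bases before the Tlr2 start and 54 to 47 bases before another Tlr1 start. A match describes letters and is not evidence of binding, and the motifs were chosen with the sequences known.

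Tlr4 encodes the lipopolysaccharide receptor, which also responds to matrix fragments. The gene lies on chromosome 4 (66827584 to 66930284, plus strand). It read 66.0, 62.6, 98.1 and 85.4 normalised counts in the control libraries, and 83.8, 123, 102 and 119 in the knockout libraries. Knockout replicate 1 lay below control replicates 3 and 4, so the groups overlapped. The mean was 78.0 ± 16.8 against 107 ± 17.9, a log2 difference of 0.46 (SE 0.20, 95% interval 0.01 to 0.91, adjusted p = 0.122), which did not pass.

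Tlr5 encodes the receptor for bacterial flagellin, on chromosome 1 (182954788 to 182976044, plus strand). It read 15.1, 6.06, 41.1 and 23.0 normalised counts in the control libraries, and 16.95, 17.96, 16.3 and 18.5 in the knockout libraries. The knockout libraries were close together and lay inside the wide range of the control libraries. The log2 difference was -0.0011 (SE 0.49, 95% interval -1.10 to 1.09, adjusted p = 0.999), an interval that covers a 2-fold change in either direction, and the sign of the value turned with the scaling and with the library left out.

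Tlr1 encodes a partner of TLR2. It read 12.98, 1.01, 8.41 and 16.4 normalised counts in the control libraries, and 31.9, 12.8, 2.18 and 22.0 in the knockout libraries. The low values were control replicate 2, with 1 read, and knockout replicate 3, with 2 reads, so each group held a library near 0. The log2 difference was 0.71 (SE 0.86, 95% interval -1.19 to 2.62, adjusted p = 0.574), the widest interval of the 9 genes. Tlr1 and its close relative Tlr6 lie on the minus strand of chromosome 5, 18467 bases apart (Tlr1 64924679 to 64933563, Tlr6 64952031 to 64960097), and how the authors counted reads that fit both is not given in the sources used here.

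Among the endosomal receptors, Tlr3 encodes the sensor of double-stranded RNA, which signals through the adaptor TRIF and not through MYD88. It read 23.8, 42.4, 45.8 and 49.3 normalised counts in the control libraries, and 82.8, 77.0, 79.4 and 79.2 in the knockout libraries. Every knockout library lay above every control library, and the knockout libraries were close together. The mean was 40.3 ± 11.4 against 79.6 ± 2.39, a log2 difference of 1.01 (SE 0.24, 95% interval 0.48 to 1.55, adjusted p = 0.0168, exact permutation p = 0.0286). The call held in all 8 fits that left out 1 library, with adjusted p from 0.0196 to 0.0475. It was lost under quantile normalisation (0.77, adjusted p = 0.0623). With a muscle marker score as covariate the difference was 1.19 and did not pass (adjusted p = 0.995), in a fit that called 0 of all genes tested. Tlr3 lies on chromosome 8 (45395665 to 45411080, minus strand), and the antisense gene Gm45542 overlaps its exons. The use of strand in counting is not given, so reads of that gene could not be told apart from reads of Tlr3. No gene row carries the name Gm45542, so its own level could not be set beside that of Tlr3.

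Tlr7 encodes a sensor of single-stranded RNA. It read 11.9, 6.06, 18.7 and 27.4 normalised counts in the control libraries, and 31.9, 50.5, 26.1 and 91.5 in the knockout libraries. Knockout replicate 3 lay just below control replicate 4, so the groups overlapped, and knockout replicate 4 was the highest. The mean was 16.0 ± 9.18 against 50 ± 29.6, a log2 difference of 1.60 (SE 0.50, 95% interval 0.48 to 2.72, adjusted p = 0.0454, exact permutation p = 0.0571). This call was close to the threshold. It held in 2 of the 8 fits that left out 1 library, without control replicate 4 (1.90, adjusted p = 0.0397) and without knockout replicate 3 (1.84, adjusted p = 0.0342), and was lost on leaving out any of the other 6, with adjusted p from 0.0527 to 0.126.

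Tlr8, beside Tlr7 on the X chromosome, encodes a related RNA sensor. Tlr8 spans 167242696 to 167264329 and Tlr7 167304929 to 167330558, both on the minus strand, with 40599 bases between them. Tlr8 read 8.65, 6.06, 2.80 and 4.38 normalised counts in the control libraries, and 19.95, 11.1, 13.1 and 16.7 in the knockout libraries. The control libraries held at most 8 reads each and the knockout libraries at least 12. The groups did not overlap, but Tlr8 was tested only because all 4 knockout libraries reached 10 normalised counts, which 0 control libraries did. The absence of overlap and the permutation p below come with that requirement and are not separate support. The log2 difference was 1.38 (SE 0.42, 95% interval 0.45 to 2.30, adjusted p = 0.0397, exact permutation p = 0.0286). The call held in 1 of the 8 fits that left out 1 library, without control replicate 1 (adjusted p = 0.0345), and the adjusted p reached 0.102 without knockout replicate 1.

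Tlr9 encodes the sensor of unmethylated CpG DNA, on chromosome 9 (106222598 to 106226883, plus strand). It read 6.49, 3.03, 2.80 and 7.67 normalised counts in the control libraries, and 15.0, 5.99, 6.53 and 6.16 in the knockout libraries. Knockout replicate 1 stood above the other 7 libraries, which held 3 to 7 reads each, and the groups overlapped. Tlr9 was too low to be tested, and a fit with no requirement on level gave a log2 difference of 0.65 (SE 0.48, adjusted p = 0.405).

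Myd88, the shared adaptor, was the member with the most reads in the control libraries. It read 183, 108, 157 and 134 normalised counts in the control libraries, and 164, 231, 146 and 198 in the knockout libraries. The groups overlapped, with control replicate 1 above knockout replicates 1 and 3. The mean was 145 ± 32.0 against 185 ± 37.8, a log2 difference of 0.35 (SE 0.20, 95% interval -0.10 to 0.79, adjusted p = 0.227), which did not pass. Myd88 lies on chromosome 9 (119335934 to 119341411, minus strand), and exons of Acaa1a overlap it on the other strand. Acaa1a read 1202 ± 54.4 against 1180 ± 104, a log2 difference of -0.03 (adjusted p = 0.828).

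**Figure D2:**
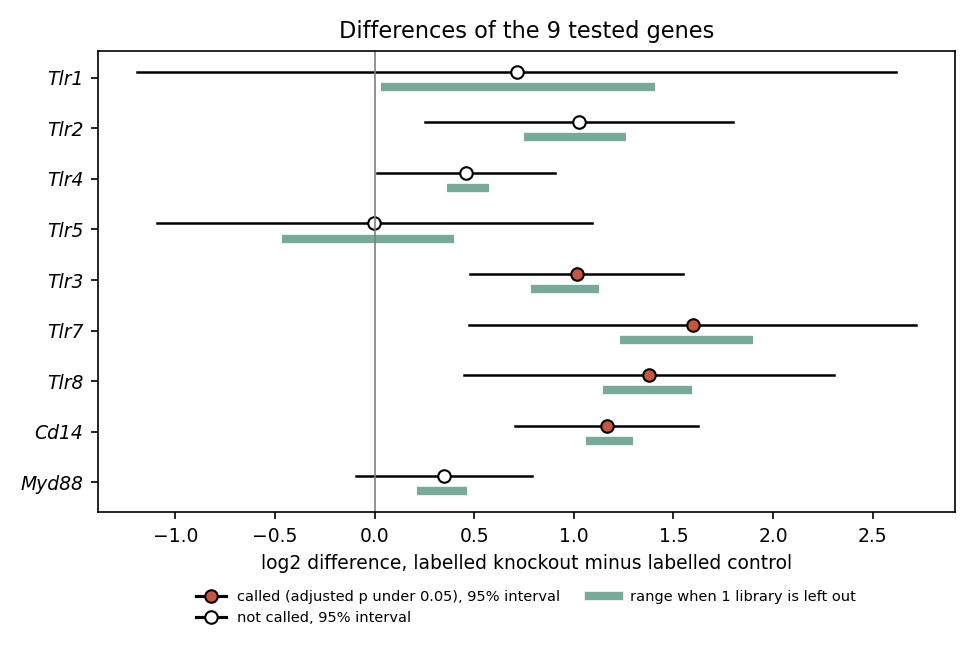
Log2 difference, labelled knockout minus labelled control, of the 9 tested genes with its 95% interval (black line) and the range of values when 1 library was left out (green bar). Filled points are the 4 genes called, and the intervals of Tlr1, Tlr5 and Myd88 cross 0.

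Per class, 0 of 4 surface receptors, 3 of 3 tested endosomal receptors (Tlr9 was too low) and 1 of the pair Cd14 and Myd88 were called. Over all genes tested 23.2% were called, 11.6% higher, a share at which 0 calls among 4 genes is unremarkable. The log2 differences of the classes ran from -0.0011 to 1.03, from 1.01 to 1.60 and from 0.35 to 1.17. The endosomal count includes Tlr8, which was tested only because its knockout libraries were high. The difference between the classes was not tested, and outside the 10 genes the surface receptor Tlr6 was called higher (adjusted p = 0.0485) and the endosomal receptor Tlr13 was not called (adjusted p = 0.0633). Of the 4 surface receptors 2, Tlr2 and Tlr4, had an unadjusted p under 0.05 in limma, and edgeR called 0 of them and DESeq2 1. The same 4 genes were called with edgeR on the recovered reads, where 22.2% of genes were called (11.3% higher), and DESeq2 added Tlr2, where 27.6% were called (14.3% higher). Under the scaling without muscle, blood and the 50 highest genes, the 4 genes were joined by Tlr2. There, 77.6% of all calls were in the higher direction, against 50.04% in the main scaling. Cd14 and Tlr3 alone were called when control replicate 2 or knockout replicate 1, 2 or 4 was left out.

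Divided by exon length, levels can be set beside one another. In the control libraries the order was Myd88 (56.4 ± 12.4 normalised counts per kb of exon), Cd14 (37.2 ± 8.34), Tlr2 (27.7 ± 11.5), Tlr4 (14.1 ± 3.02), Tlr3 (7.74 ± 2.18), Tlr5 (4.45 ± 3.11), Tlr7 (3.92 ± 2.25), Tlr1 (2.90 ± 1.99), Tlr8 (1.53 ± 0.70) and Tlr9 (1.44 ± 0.71). In that order only Tlr2 against Tlr4 and Tlr4 against Tlr3 had ranges that did not overlap. In the knockout libraries Cd14 (83.9 ± 15.8 per kb) stood before Myd88 (71.7 ± 14.7), and it was the higher of the pair in all 4 libraries, whereas Myd88 was the higher in all 4 control libraries. Tlr2 (57.2 ± 26.4), Tlr4 (19.3 ± 3.23), Tlr3 (15.3 ± 0.46), Tlr7 (12.3 ± 7.25), Tlr1 (5.15 ± 3.80), Tlr8 (4.24 ± 1.09), Tlr5 (3.64 ± 0.20) and Tlr9 (2.42 ± 1.26) followed. There, Tlr2 against Tlr4 was the only neighbouring pair whose ranges did not overlap.

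**Figure D3:**
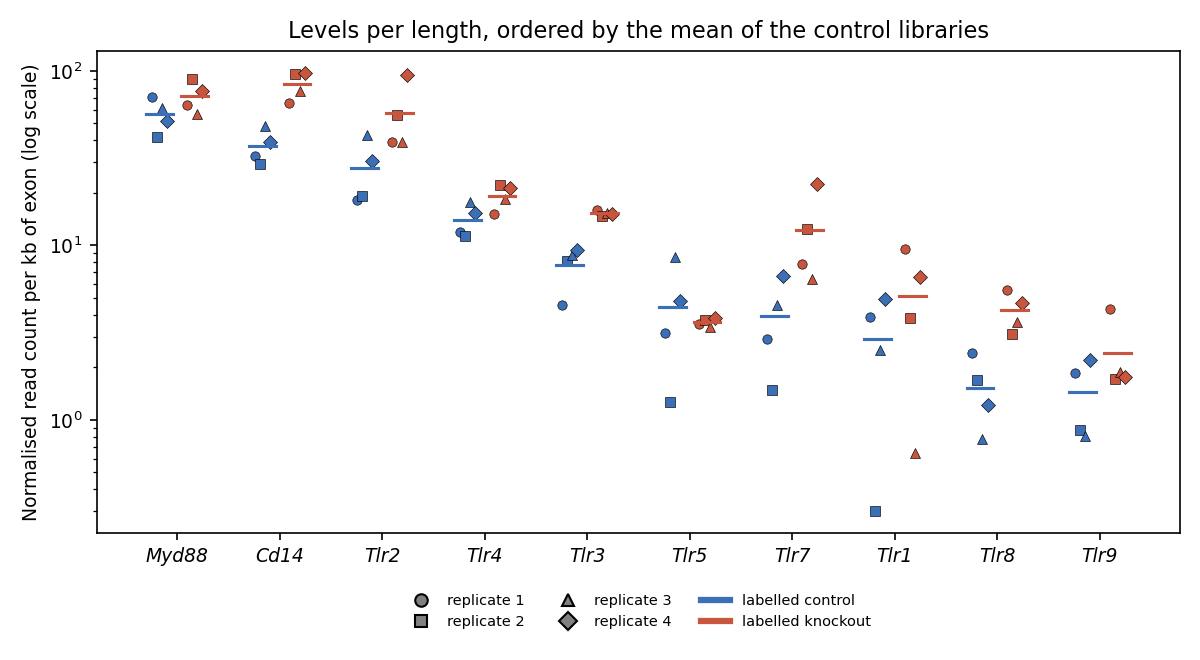
Normalised read count per kb of exon (log scale) of the 10 genes in each library, ordered by the mean of the control libraries, labelled control in blue and labelled knockout in red, with a bar for the group mean. Levels fall from Myd88 at 56.4 to Tlr9 at 1.44 per kb in the control libraries, and Cd14 comes first in the knockout libraries at 83.9 per kb.

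The libraries did not keep 1 rank over the genes. Among the control libraries replicate 2 was the lowest for 6 of the 10 genes and the highest for none. Knockout replicate 3 was the lowest of its group for 5 genes and the highest for none, and knockout replicates 1 and 4 were the highest for 4 genes each.

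Within the sexes, 2 control and 3 knockout libraries were female, and 2 control and 1 knockout were male. Cd14 read log2 differences of 1.34 among females and 1.14 among males, Tlr3 1.31 and 0.68, Tlr7 2.19 and 1.12, Tlr8 1.07 and 1.42, Tlr2 1.47 and 0.62, and Tlr4 0.64 and 0.42. For these 6 genes the knockout libraries lay above the control libraries of the same sex in both sexes, the male side with 1 knockout library. Tlr1 and Tlr9 did so in neither sex, and Myd88 in males only. The share of all genes with that arrangement was not counted, and so few libraries per sex reach it easily. Tlr5 was 0.77 among females and -0.75 among males, from 1 knockout male. With sex as a term, added after the data had been seen, Tlr2 (1.17, adjusted p = 0.0332) and Tlr4 (0.56, adjusted p = 0.0465) passed and Tlr8 (1.196, adjusted p = 0.0568) did not, while Cd14, Tlr3 and Tlr7 kept their calls.

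In limma most markers of macrophages, fibroblasts and osteoclasts were called higher, and most markers of the other cell types were not. Of 10 macrophage markers, 7 were called higher, among them Cd68, Csf1r, Adgre1 and the complement genes C1qa, C1qb and C1qc, and none was at 0 in any library. Their summed level was 2783, 1451, 2776 and 3352 in the control libraries, and 6510, 5076, 6087 and 7013 in the knockout libraries, without overlap. Fibroblast markers, 5 of 7 higher, summed to 37853 to 114153 in the control and 136567 to 223272 in the knockout libraries. Osteoclast markers, 6 of 6 higher in limma and 4 in each of edgeR and DESeq2, ran from 1489 to 10352 against 8429 to 30344. Chondrocyte markers, with 1 of 6 higher (Hapln1), summed to 3022 to 7828 against 7918 to 12326. Of 10 skeletal muscle markers limma called 5 lower and none higher, and edgeR and DESeq2 each called 9 lower. Over all genes tested limma called 11.6% higher and 11.6% lower. The part of these cell types in the receptor differences was not tested, but with a muscle marker score as covariate no member was called, nor any gene of the table, at an adjusted p under 0.05. At an unadjusted p under 0.05 that fit gave 0 of the 9 genes and 612 of all genes, and 84.4% of the variance of the score lay between the groups.

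Of 8 tested neutrophil markers, which include the TLR4 ligand genes S100a8 and S100a9, limma, edgeR and DESeq2 each called 0 (1 at an unadjusted p under 0.05), and the list summed to 1395 to 5670 against 1131 to 2718. The same tools called 0 of 4 tested B cell markers (0 at an unadjusted p under 0.05), with sums of 40.4 to 304 against 16.7 to 332. Of 4 monocyte markers only Ccr2 was higher, and their sum was 68.2 to 420 against 166 to 402. Of 5 tested markers of plasmacytoid dendritic cells, the classical site of TLR7 and TLR9, Bst2 (0.64, adjusted p = 0.0461) and Tcf4 (0.51, adjusted p = 0.0156) were higher and Cox6a2, which muscle also expresses, was lower (-0.48, adjusted p = 0.0237). Siglech, the most specific of them, reached 21.9 normalised counts at most and was not called (adjusted p = 0.176). Of the T cell markers Cd3e alone was tested, and it was lower (-1.19, adjusted p = 0.0377), while the list summed to 30.8 to 91.9 against 29.1 to 113. The erythroid list, 16755 to 98968 in the control and 4040 to 42558 in the knockout libraries, had 0 of 7 called by any of the 3 tools and 7 lower at an unadjusted p under 0.05. Endothelial markers had 0 of 4 called by any tool and 0 at an unadjusted p under 0.05, and summed to 3181 to 4308 against 2307 to 5210.

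**Figure D4:**
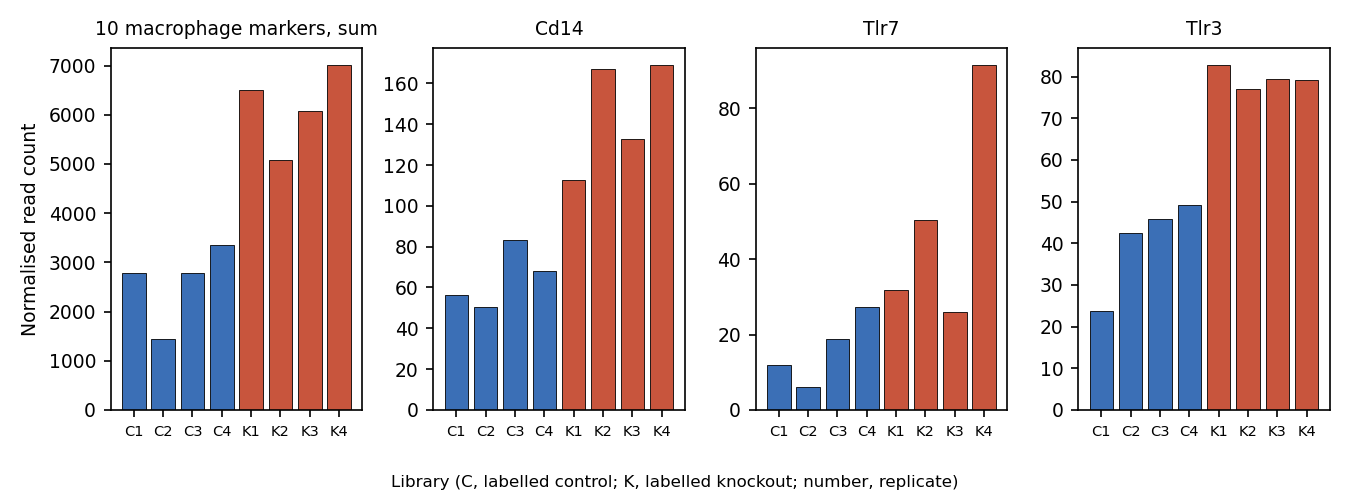
Normalised read count in each library (C, labelled control, in blue; K, labelled knockout, in red; the number is the replicate) of the sum of 10 macrophage markers, Cd14, Tlr7 and Tlr3, each bar from 0. The macrophage sum runs from 1451 to 3352 in the control and from 5076 to 7013 in the knockout libraries, and Tlr7 alone of the 4 panels overlaps between groups.

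By likeness of profile over the 8 libraries, the nearest genes among 11646 with a mean of at least 50 were found by the root mean square difference of log2 values centred on each gene's mean. For Cd14 these were Ier5l (0.12) and Selenom (0.12), for Tlr2 Foxd1 (0.15) and Msx1 (0.17), and for Tlr3 Praf2 (0.16) and Tcaf2 (0.19). For Tlr7 they were Vsig4 (0.25) and Wfdc17 (0.35), and for Tlr8 Mfsd12 (0.18) and Ifi30 (0.20). The others were Star and Utrn for Tlr4 (0.08 and 0.09), Rasa3 and Gnaq for Myd88 (0.10 and 0.12), Cacng7 and Cyp2e1 for Tlr5 (0.25 and 0.33) and Pi15 and Cyp1b1 for Tlr1 (0.60 and 0.63).

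Of 77 other genes of the pathway, 61 were tested, of which 16 were higher, 3 lower and 42 not called, and their median log2 difference was 0.27. Over all genes tested 23.2% were called, 11.6% in each direction, and the counts per role stand beside those shares. Among the other receptors Tlr6, a partner of TLR2, read 17.3, 13.1, 14.02 and 26.3 normalised counts in the control libraries, and 29.9, 46.2, 27.2 and 34.3 in the knockout libraries. The groups did not overlap, and its log2 difference of 0.94 passed narrowly (SE 0.30, adjusted p = 0.0485), with the call kept in 7 of 19 other settings and lost on leaving out any library but control replicate 4 or knockout replicate 3. Tlr13, a sensor of bacterial ribosomal RNA, read 23.2 ± 13.4 against 55.2 ± 15.2 and did not pass (adjusted p = 0.0633). Tlr12 was too low to be tested, and Tlr11 was not analysed here.

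Genes that help receptors fold, travel and bind were called higher in 4 of 8 cases and lower in 1. Ly86, which encodes MD-1, the partner of the TLR4 relative RP105, read 22.3 ± 11.0 against 78.6 ± 34.5 (log2 difference 1.87, adjusted p = 0.0188). Cd180, which encodes RP105 and is named beside its partner after its values were seen, rose from 13.3 ± 6.05 to 39.7 ± 15.3 (1.51, adjusted p = 0.0282). Unc93b1, which carries the nucleic acid receptors to endosomes, read 245 ± 62.1 against 450 ± 99.5 (0.89, adjusted p = 0.0179). Hsp90b1, the chaperone of most Toll-like receptors, was 0.46 higher (adjusted p = 0.0167), and Cd36, a scavenger receptor abundant in muscle and fat that also assists TLR2, was lower (-0.60, adjusted p = 0.0152). Ly96, which encodes MD-2, the lipopolysaccharide-binding partner of TLR4, read 13.1 ± 6.85 against 21.5 ± 7.25 and did not pass (adjusted p = 0.246).

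The proteases that cleave endosomal receptors into their active form were higher in 3 of 4 cases. Ctss, which encodes cathepsin S, read 201, 163, 377 and 353 normalised counts in the control libraries, and 807, 756, 1017 and 832 in the knockout libraries. All knockout libraries were above all control libraries, with a log2 difference of 1.72 (adjusted p = 0.00438). Lgmn, for legumain, was 0.59 higher (adjusted p = 0.0089) and Ctsl, for cathepsin L, 0.33 higher (adjusted p = 0.0299). The call of Ctsl held in 11 of 19 other settings, and those of Ctss and Lgmn in 18.

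Of the 3 other adaptors tested, Tirap, which bridges TLR2 and TLR4 to MYD88, was called lower (-0.51, adjusted p = 0.0441), where 23.2% of all genes were called in either direction. Of 16 kinases and ligases, Irak4, the first kinase recruited by MYD88, was higher (0.71, adjusted p = 0.0422), as was Ikbke (0.89, adjusted p = 0.0393), and Map3k7, which encodes the kinase TAK1, was lower (-0.28, adjusted p = 0.0490). Of 8 transcription factors Nfkb2 alone was called (0.33, adjusted p = 0.0371), and Nfkb1, Rel, Rela, Relb, Irf3, Irf5 and Irf7 were not. Rela read 602 ± 9.88 against 727 ± 81.15 and missed the threshold (0.27, adjusted p = 0.0670). Its knockout libraries all lay above its control libraries, an arrangement seen in 11.7% of all genes tested. Calls held in 11 of 19 other settings for Ikbke, 8 for Irak4, 7 for Tirap, 7 for Nfkb2 and 3 for Map3k7, so each of the 5 lost its call in at least 8 of them.

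Among 9 inhibitors of the pathway Socs1, a cytokine-induced brake on signalling, was the single call. It read 34.6, 22.2, 54.2 and 32.9 normalised counts in the control libraries, and 173, 118, 170 and 143 in the knockout libraries. Every knockout library stood above every control library, and the log2 difference was 2.09 (adjusted p = 0.00397). Of the target genes, Nfkbiz, which encodes an NF-kB cofactor, was higher (1.05, adjusted p = 0.0239), Nos2 was not called, and the rest were too low to be tested or not analysed here. Of 9 joint molecules known as ligands, the matrix genes Lum (2.24, adjusted p = 0.0120), Dcn (1.10, adjusted p = 0.0338) and Tnc (1.78, adjusted p = 0.0462) were higher, and 2 of these, Lum and Dcn, also stand in the fibroblast marker list. Calls held in 12 of 19 other settings for Nfkbiz, 18 for Lum, 11 for Dcn and 9 for Tnc.

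**Figure D5:**
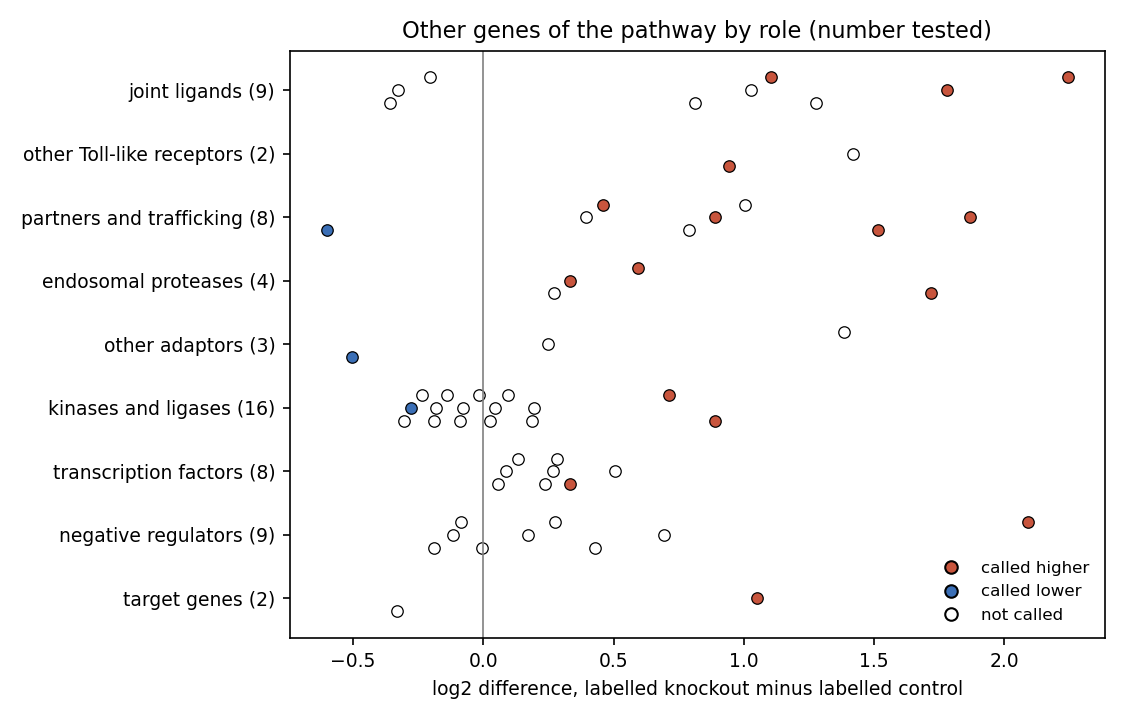
Log2 difference, labelled knockout minus labelled control, of the 61 other pathway genes tested, 1 point per gene, by role with the number tested in brackets; red is called higher, blue called lower and white not called. Receptor partners, proteases and joint ligands hold most of the 16 genes called higher, and 13 of the 16 kinases and ligases were not called.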

How the data were processed

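Per the labels, poly-A RNA was isolated from knee joint, about 400 ng was used, and reads were aligned to mm10 and counted per gene with featureCounts; HISAT2 is named in the submitters' processing notes. DESeq2 normalisation is stated in the labels, and versions, annotation, use of strand and filters are not given in the sources used here. The deposited table holds a normalised signal, each gene's reads divided by a size factor; 100% of values in every library were whole multiples of 1 step (tolerance 0.02 reads), so reads were recovered. limma 3.58.1 in R 4.3.3 (eBayes with trend) was fitted on log2(value + 1) to the 14949 genes that reached a value of 10 in 4 or more libraries, 4 against 4. The fits were also run on simulated data with few genes changed, evenly in both directions and without a shift in muscle content. The data here differ from that, so the simulation does not show how many calls are false here. A fold is on the log2(value + 1) scale and understates the change of low genes. Recovered reads gave 3324 calls with edgeR 4.0.16 and 4125 with DESeq2 1.42.0, against 3461 with limma. Pairs of libraries within a group differed by more than counting noise (chi-square per degree of freedom 25.8 to 66.1). That each library came from a separate animal is not stated, so p-values measure the spread between these libraries. Positions and exon lengths come from GENCODE M21, which matched 99.2% of gene names; lengths are all exons merged. All 10 members and, of each role list, the called genes (at most 4, smallest p first) with Tlr6, Ly96 and Loxl2 are named. Alternatives were other scalings, pseudocounts and tools, no filter, a replicate block, a muscle covariate, sex as a term and each library left out. The members, role lists and marker lists were chosen with earlier results of these data known.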

Additional observations from a re-analysis of the deposited data

Results flagged for a closer look

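In 5 of 60 groups of 4 libraries checked, over 30 genes named in the text, 1 library stood apart from the other 3 by Dixon's test, and chance gives about 1 in 20. Tlr9 in knockout replicate 1 read 14.96 normalised counts, and the next highest knockout library read 6.53. Loxl2 in control replicate 3 read 1134.7 normalised counts, within the range of the knockout libraries, while the next control library read 349. Dcn, a matrix proteoglycan, read 9958.1 normalised counts in control replicate 3 beside 5384 in the next. Knockout replicate 3 was low for 2 matrix genes, with Lum at 4425.0 beside 10141 in the next lowest library and Tnc at 2506.7 beside 4113. In control replicate 3, Tlr2, Tlr4, Tlr5 and Cd14 were the highest of their group, and in knockout replicate 3 Tlr1, Tlr2, Tlr5, Tlr7 and Myd88 were the lowest of theirs.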

How the results depend on the processing

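Cd14 kept its call in 18 of 19 alternatives, Tlr3 in 17, Tlr7 in 10 and Tlr8 in 8. Of the 9 tested genes 4 were called, and of the pathway genes 19. Quantile normalisation left 1 member called, Cd14. With the muscle marker score as covariate 0 members, 0 pathway genes and 0 of all genes were called in limma (0, 3 and 612 at an unadjusted p under 0.05), and Tlr1 (-1.76), Tlr2 (-0.73), Tlr4 (-0.12), Tlr7 (-1.05), Myd88 (-0.30) and Dcn (-0.0153) turned negative; the cause was not tested beyond the share of the score that lay between the groups. Replicate numbers did not pair the libraries: correlations of same-numbered libraries were 0.213, -0.118, -0.233 and -0.063, and not every library correlated best with its own number. With the replicate block 3 members, 8 pathway genes and 2018 of all genes were called, against 3461 without it. Leaving out 1 library gave 2 to 4 members, 6 to 21 pathway genes and 1751 to 3841 of all genes; leaving out knockout replicate 4, 2 or 1 gave 6, 9 or 10 pathway calls, and leaving out control replicate 2 or 4 gave 8 or 10. Members were 2 without control replicate 2 or knockout replicate 1, 2 or 4. Tlr5, whose difference was -0.0011, turned positive with TMM scaling (0.008) and with a pseudocount of 0.1 (0.018). It also did with scaling without muscle, blood and the 50 highest genes (0.14, and -0.01 relative to the median of all genes). Sex as a term gave 0.23, and 4 of the leave-one-out fits were positive (over all of them, lowest -0.46, highest 0.40). The depth limits Tlr1, Tlr8 and Tlr9 most, where a library held as few as 1 to 3 reads.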

Other observations

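Apart from Nfkbiz and Nos2, the inflammatory target genes of the pathway held few reads and were not tested. Tnf, the cytokine most associated with macrophage activation, read 4.58 ± 2.89 normalised counts (SD, n = 4) in the control and 13.1 ± 2.71 in the knockout libraries, without overlap (exact permutation p = 0.0286, the smallest possible, not adjusted). Ccl3, a chemokine for monocytes, read 2.01 ± 1.28 against 9.13 ± 3.39, also without overlap (exact permutation p = 0.0286). Among all genes tested, which Tnf and Ccl3 were not, 11.7% had every knockout library above every control library. Il1b (7.02 ± 4.74 against 11.1 ± 7.38), Il6 (1.84 ± 1.66 against 2.20 ± 1.32), Cxcl10 (6.53 ± 2.63 against 13.5 ± 9.22), Ccl2 (8.88 ± 5.18 against 16.7 ± 9.53) and Ptgs2 (3.97 ± 2.50 against 14.9 ± 12.2) overlapped between the groups. So did Cxcl1 (4.06 ± 3.48 against 8.17 ± 5.02) and Cxcl2 (0.97 ± 1.32 against 3.98 ± 4.89). Ccl4 (0.72 ± 0.90 against 7.56 ± 7.44) and Ccl5 (8.18 ± 7.64 against 18.1 ± 28.6) overlapped as well. In knockout libraries 14 reads were the most that Ccl3 reached and 19 the most for Tnf, so these values rest on few reads. Il12b and Ifnb1 were not analysed here.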
